A study of Mus musculus with 24 samples.

Results

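The chemokines and chemokine receptors are a group of small secreted proteins and the G protein-coupled receptors that read them. They were chosen by gene symbol alone: of the 45706 genes in the count table, 63 protein-coding genes carried a symbol of a CC, CXC, CX3C or XC chemokine (39 ligands) or of one of their receptors (24 receptors, 5 of them atypical). The libraries came from female C57BL/6J mice of 8 to 12 weeks, with no genetic change and no immune stimulation in any group. Microglia (MG) from brain, Kupffer cells (KC) from liver, peritoneal macrophages (PM) and alveolar macrophages (AM) were either FACS-sorted directly ex vivo or grown as MG-, KC-, PM- and AM-like cells (MG-LCs, KC-LCs, PM-LCs and AM-LCs), with 3 libraries in each of the 8 groups and 24 in all. The study asked how far these cultured tissue-resident macrophages kept the transcriptome of their sorted counterparts.

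Sorted cells were gated on surface proteins, with CD45 low CD11b+ for MG, TIM-4+ F4/80+ for KC, CD115+ F4/80+ for PM and SiglecF+ for AM. The cultures were started from unsorted cell suspensions on flasks coated with polyethylenimine and ran for 14 days, with 3 mice per flask for brain, lung and peritoneum and 1 liver per flask, and they were not purified before RNA extraction. KC-LCs and PM-LCs received M-CSF, MG-LCs received M-CSF and IL-34, and these cultures were kept at 3% oxygen. AM-LCs received GM-CSF, had no glucose and were kept at atmospheric oxygen, so that in culture the lung origin cannot be told apart from medium, growth factor and oxygen. In the same way, culture, sorting and the purity of the cells changed together between the sorted and the cultured groups. Nothing in the labels says that the 3 libraries of a group came from separate mice or flasks, so p-values measure the spread between these libraries.

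Chemokines bind the matrix and guide leukocytes along a gradient. ELR CXC ligands such as Cxcl1 and Cxcl2 act on Cxcr2 of neutrophils, Ccl2 and Ccl7 act on Ccr2 of monocytes, and Ccl3, Ccl6 and Ccl9 act on Ccr1. Many of these inflammatory ligands are rapid targets of NF-kB, whereas homeostatic ligands such as Cxcl12 and Cxcl13 are made constitutively and place cells within tissues. In macrophages the family is best known for Cx3cr1, the fractalkine receptor that marks microglia, and for Cxcl13 of the peritoneal cavity, which attracts B cells.

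The sorted populations carried their own defining transcripts, with means of 4394 CPM (reads scaled to library size by TMM) of Tmem119 in MG, 11735 of Clec4f in KC, 144 of Gata6 in PM and 652 of Siglecf in AM. In culture Clec4f had a mean of 0.0560 CPM in KC-LCs and was close to absent, Tmem119 was at 23.6 in MG-LCs, Gata6 at 17 in PM-LCs and Siglecf at 179 in AM-LCs. Between 29569486 and 47105111 reads per library fell on genes, so a gene without a read could lie at up to 0.0661 to 0.114 CPM (3 reads; counting error only). Many libraries held RNA of other cells. The 8 T and NK cell markers summed to 284, 26.2 and 22.1 CPM in KC replicates 1, 2 and 3, and the 8 fibroblast and mesothelium markers summed to 30968, 7.39 and 1012 in MG-LCs, 22.9, 2208 and 365 in PM-LCs and 17, 181 and 1667 in AM-LCs, against at most 23.8 in the sorted libraries. KC replicate 1, MG-LC replicate 1, PM-LC replicate 2 and AM-LC replicate 3 therefore stood apart. For members named by rule, most results that rest on them are given with and without them. The 6 monocyte markers were highest in the same cultured libraries. They summed to 233, 1.69 and 10.2 CPM in MG-LC replicates 1, 2 and 3, 26.7, 154 and 9.49 in PM-LCs and 7.05, 28.7 and 118 in AM-LCs. Other markers were present throughout a group. In KC replicates 1, 2 and 3 the 8 endothelium markers summed to 380, 578 and 677 CPM and the 8 hepatocyte markers to 276, 142 and 157. The 7 lung epithelium markers summed to 310, 288 and 345 CPM in AM and 216, 61.9 and 83.9 in AM-LCs. In these bulk samples fewer cells of a type and less RNA per cell cannot be told apart.

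Of the 63 members, 49 passed the filter on low counts in at least 1 of the 4 sorted against cultured comparisons. The 14 others were the ligands Ccl1, Ccl11, Ccl19, Ccl20, Ccl21a, Ccl21b, Ccl26, Ccl27b and Ccl28 and the receptors Ackr1, Ackr2, Ccr4, Ccr8 and Ccr10. Ccl19, Ccl21a, Ccl21b and Ccl27b had no read in any library, and as they have near-identical copies in the mouse genome their counts are uncertain. Ligands took up 0.0588 ± 0.00552 percent of all reads in MG, 0.267 ± 0.0422 in KC, 1.22 ± 0.110 in PM and 0.900 ± 0.0312 in AM, and receptors 0.929 ± 0.168, 0.0587 ± 0.0197, 0.0718 ± 0.00345 and 0.0327 ± 0.00235 percent (mean ± SD, n = 3). MG were thus the sorted population with more receptor than ligand RNA, and a single gene, Cx3cr1, made up most of it.

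**Figure D1:**
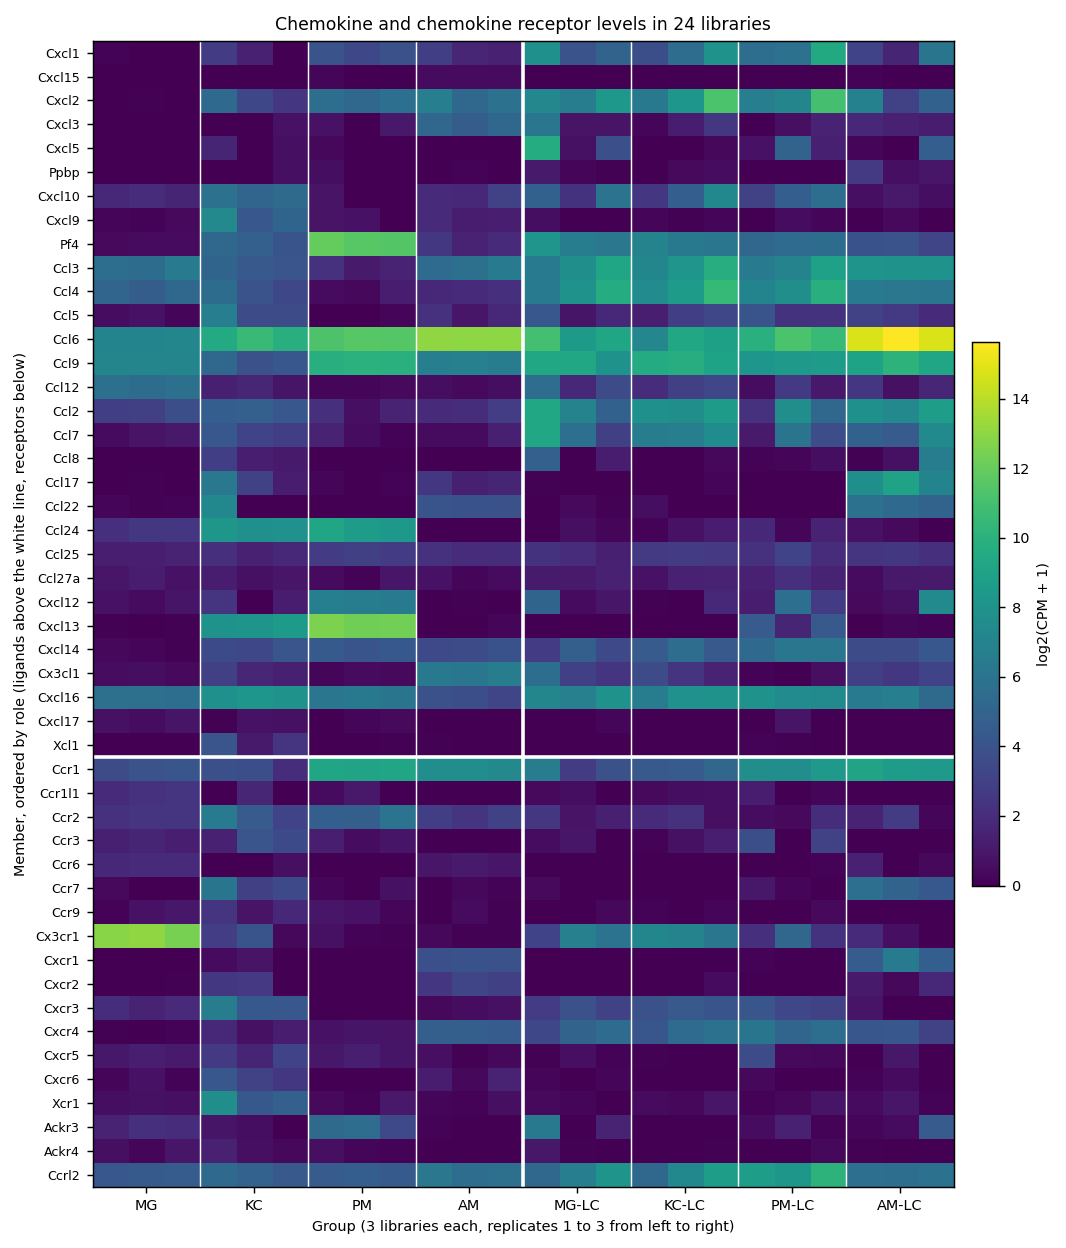
Levels of 48 members that passed the filter, as log2(CPM + 1), in 24 libraries (columns, 3 per group, sorted groups left of the thick line and cultured groups right of it), with ligands above and receptors below the horizontal line. The blocks of high Cx3cr1 in MG, Cxcl13 and Pf4 in PM and Ccl6 in AM and AM-LCs stand out, while Ccl2, Ccl3, Ccl4 and Ccl7 were brighter across the cultured groups.

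Ex vivo nearly every member with enough reads differed between the sorted populations, in part because of the filter on low counts. Among the 12 sorted libraries, 44 of 47 members tested (27 of 28 ligands and 17 of 19 receptors) differed between the 4 populations, which is 93.6% beside 70.9% of all genes tested (edgeR quasi-likelihood F test, Benjamini-Hochberg adjusted p under 0.05 over all genes). The 3 others were Ccl27a, Ccr1l1 and Ccr9. Some members passed the filter only through the group where they were high, such as Xcl1. Its mean was 7.15 CPM in KC and at most 0.0271 in the other sorted populations. For such members the filter largely set the outcome of the F test, and all genes passed the same filter. The part of RNA of other cells in these calls was not tested. Per kilobase of exon, the scale on which genes can be set side by side, the leading ligand was Ccl12 in MG (94.6 CPM per kilobase), Ccl6 in KC (593), Cxcl13 and Pf4 in PM (4596 and 4539) and Ccl6 in AM (4559). The leading receptor was Cx3cr1 in MG (1592) and Ccr1 in PM and AM (208 and 67.2).

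Microglia were set apart by Cx3cr1. Cx3cr1 stood at 7515, 8439 and 5568 CPM in the 3 MG libraries, at 6.28, 15.7 and 0.257 in KC, at 0.635, 0.109 and 0.0813 in PM and at 0.269, 0.0511 and 0.0497 in AM. All MG libraries lay far above all others, with a mean 968-fold that of KC (adjusted p = 6.72e-05), whereas PM and AM did not differ beyond their spread (adjusted p = 0.624). The exons of Cx3cr1 overlap those of Gm33858 on the other strand, whose reads cannot be told apart. Ccl12, a ligand of Ccr2, was at 53.9, 44.6 and 54 CPM in MG and at 1.53 ± 0.667, 0.230 ± 0.0848 and 0.436 ± 0.0902 (mean ± SD, n = 3) in KC, PM and AM. Ccr6, the receptor for Ccl20, was a low but even MG transcript, with 2.49, 2.84 and 2.58 CPM.

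**Figure D2:**
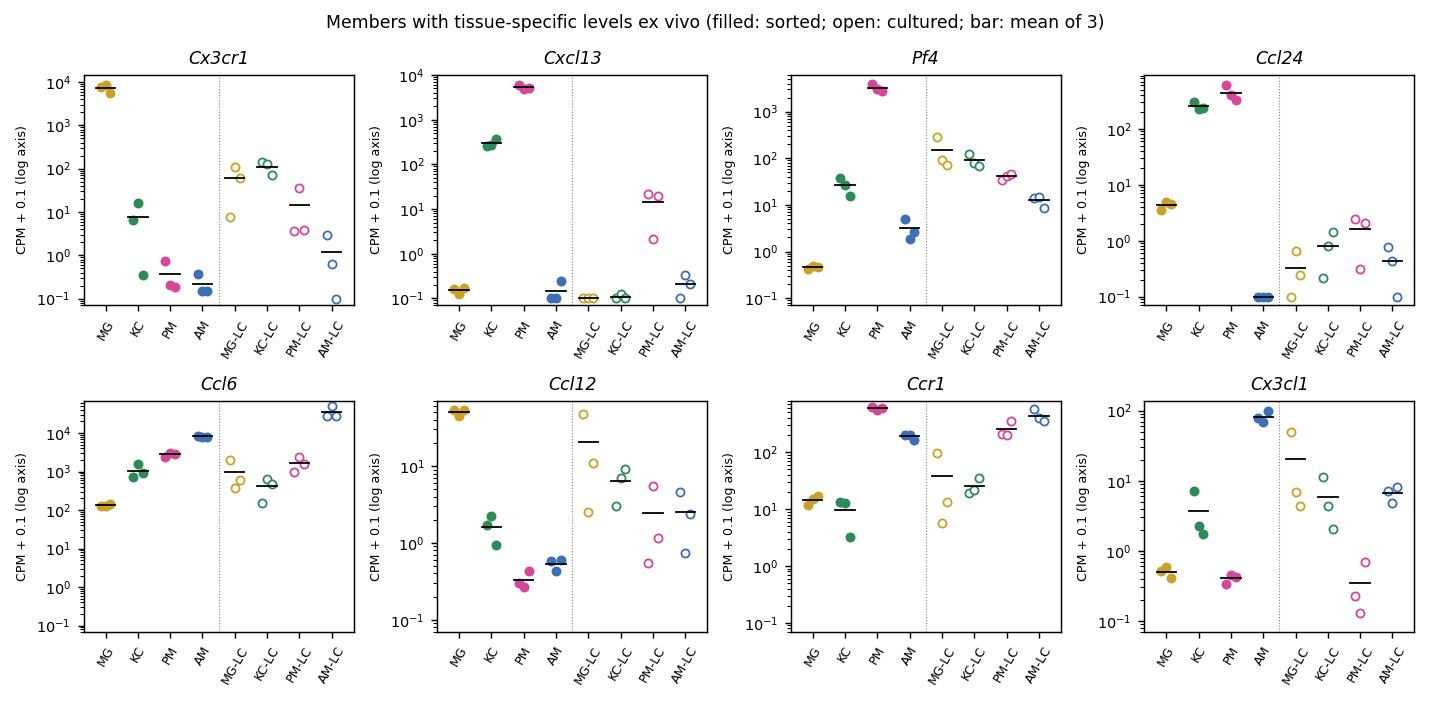
CPM + 0.1 on a log axis for 8 members in the 8 groups; filled circles are sorted libraries, open circles cultured ones and bars the mean of 3. Cx3cr1 (MG), Cxcl13 and Pf4 (PM), Ccl24 (KC and PM), Ccl12 (MG) and Cx3cl1 (AM) were each high in 1 or 2 sorted groups, and Ccl6 was highest in AM-LCs.

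Peritoneal macrophages carried the highest levels of several ligands. Cxcl13 was at 5926, 4782 and 5148 CPM in PM and at 253, 273 and 365 in KC, and under 1 CPM in every MG and AM library. PM exceeded KC 17.8-fold (adjusted p = 8.64e-06), and KC exceeded MG and AM by far. Pf4, platelet factor 4 or Cxcl4, was at 3969.7, 3019 and 2829 CPM in PM, 38, 26.5 and 15.6 in KC, 4.90, 1.79 and 2.56 in AM and 0.330, 0.379 and 0.358 in MG. The 4 groups did not overlap, and the 7 platelet markers summed to at most 1.06 CPM in PM. Ccl24, an eotaxin read by Ccr3, reached 606, 398 and 322 CPM in PM and 308, 227.3 and 241 in KC, was at 3.48, 4.90 and 4.49 in MG and had no read in AM. All PM libraries were above all KC libraries, a difference that passed the test narrowly (adjusted p = 0.0353).

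The receptor Ccr1 and the homeostatic ligand Cxcl12 were further PM transcripts. Ccr1 was at 615, 553 and 602 CPM in PM, 201, 204 and 166 in AM, 11.6, 15 and 16.8 in MG and 13.3, 12.5 and 3.11 in KC. PM were 3.10-fold above AM (adjusted p = 0.00633), and MG and KC overlapped (adjusted p = 0.3001). Cxcl12, the ligand of Cxcr4, had 104, 94.4 and 91.1 CPM in PM and at most 4.21 CPM in any other sorted library. Its scavenging receptor Ackr3 was likewise highest there, with 41.3, 47.3 and 10.1 CPM.

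Alveolar macrophages were led by Ccl6, a CC ligand of Ccr1, which alone took 0.838 to 0.891% of all reads. It was at 8580.5, 7990.3 and 7982 CPM in AM, 2441, 3015 and 2917 in PM, 740.0, 1543 and 911 in KC and 129.8, 131 and 141 in MG. The groups did not overlap and every neighbour in the order differed, AM and PM by 2.93-fold (adjusted p = 0.000358). Cx3cl1, the membrane-bound ligand of Cx3cr1, was at 78.6, 69.3 and 99.2 CPM in AM against 3.58 ± 2.92 in KC (mean ± SD, n = 3; adjusted p = 2.38e-05) and under 1 CPM in MG and PM. In MG, where its receptor was highest, it was at 0.419, 0.487 and 0.310 CPM. All AM libraries held lung epithelium markers, and the part of such cells in the AM level of Cx3cl1 was not tested. AM were also the sorted population with Cxcl3 (34.9, 23.6 and 36.8 CPM), Cxcr1 (13, 14.1 and 13.4) and Cxcr4 (25.2, 25.6 and 22.8). Cxcr1 and Cxcr2 are best known from neutrophils. Of the 8 neutrophil markers 6 had reads in AM, summing to 98, 116 and 118 CPM, nearly all of it Mmp8 (mean 103), while Ly6g and Retnlg had none and S100a9 averaged 0.178.

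Kupffer cells had the highest Cxcl16, the transmembrane ligand of Cxcr6, with 227.1, 292 and 265 CPM against 68.6, 79.2 and 67.4 in PM, 53.3, 53.5 and 49.7 in MG and 13.9, 12.6 and 8.75 in AM. KC lay 3.64-fold above PM without overlap (adjusted p = 1.4e-05). Its exons overlap those of Zmynd15 on the other strand, and the library kit does not mark strand. All KC libraries held endothelium markers, and the part of such cells in the KC level of Cxcl16 was not tested. The levels of several members in KC depended strongly on KC replicate 1. Xcr1, a receptor that marks cross-presenting dendritic cells, was at 206, 18.4 and 27 CPM in KC replicates 1, 2 and 3, Cxcl9, an interferon-gamma target and ligand of Cxcr3, at 160.0, 18.2 and 31.2, Ccr2 at 84.6, 21.3 and 7.90, and Ccl17, a ligand of Ccr4, at 74.8, 7.14 and 1.28. The same library was the highest each time, and Ccl22, the other Ccr4 ligand, was at 158, 0 and 0 CPM. In the same library the 5 dendritic cell markers summed to 420.4 CPM against 69 and 72.4, the 6 monocyte markers to 306 against 152 and 158, and the T and NK cell markers were highest as given above. Of the 20 members named by rule that averaged at least 10 CPM in KC, 14 had their highest KC library in replicate 1. The part of these cells in the members' levels was not tested.

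Between 56.8% and 61.1% of the members that could be tested differed between sorted and cultured cells, and inflammatory ligands were mostly higher in vitro. In MG, 5 of the 36 members tested were higher ex vivo and 17 in vitro, against 21.2% and 25.2% of all genes tested. In KC, 14 and 11 of 42 were called, against 19.4% and 14.4% of all genes. The counts for PM were 7 and 15 of 36, against 12.1% and 16.8%, and for AM 5 and 16 of 37, against 22.9% and 25.9%. For both directions together the members' shares were 61.1%, 59.5%, 61.1% and 56.8% in MG, KC, PM and AM, beside 46.4%, 33.8%, 28.9% and 48.7% of all genes. The 3 sorted and 3 cultured libraries did not overlap for 27 of 36 members in MG (65.4% of all genes), 31 of 42 in KC (54.1%), 25 of 36 in PM (48.8%) and 23 of 37 in AM (61.7%), so that the AM share (62.2%) was at the background. Several of these counts rest on single libraries. With any 1 of the 3 sorted MG libraries left out, 2 members were higher ex vivo in MG and 6 in vitro. Without PM replicate 2 or PM replicate 3 the members higher in vitro in PM numbered 8. Without KC-LC replicate 1 or KC-LC replicate 2, 9 were higher ex vivo in KC, and without AM replicate 1, 2 or 3 the AM members higher ex vivo numbered 3, 3 and 2.

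Ligands and receptors were also counted apart. Of the ligands tested, 1 was higher ex vivo and 14 in vitro in MG (of 22), 5 and 8 in KC (of 26), 4 and 11 in PM (of 23) and 4 and 12 in AM (of 23). Of the receptors, 4 were higher ex vivo and 3 in vitro in MG (of 14), 9 and 3 in KC (of 16), 3 and 4 in PM (of 13) and 1 and 4 in AM (of 14). Over all genes 21.2%, 19.4%, 12.1% and 22.9% were higher ex vivo and 25.2%, 14.4%, 16.8% and 25.9% in vitro. With 7, 4, 6 and 9 receptors not called, the receptor share was near that of all genes in MG and below it in AM. The median log2 fold change, positive where the sorted cells were higher, was -3.84, -0.59, -1.70 and -2.03 over the ligands and 1.19, 3.90, -0.61 and -0.01 over the receptors in MG, KC, PM and AM, with medians over all genes between -0.04 and 0.01. Putting members without any read in 1 group at their detection limit did not move these medians. Ccl2, Ccl3, Ccl4 and Ccl7 were higher in vitro in all 4 populations, and Ccl9, Cxcl1, Cxcl2, Cxcl16, Pf4, Ccrl2 and Cxcr4 in 3. Ccl24 was higher ex vivo in the 3 populations where it was tested, and 9 members were called in opposite directions in different populations.

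The calls of single members were as sensitive to single libraries, always with the direction kept. In MG the calls of Ccl2, Ccl3, Ccl4, Ccl6, Ccl7, Ccl9, Ccl24, Ccrl2, Cx3cl1 and Cxcl10 were lost when any of the 3 sorted MG libraries was left out (adjusted p from 0.0554 to 0.133), and the calls of Ccl3 without MG-LC replicate 2 or 3 and Ccl24 without MG-LC replicate 3 (0.0575 to 0.0773). The PM calls of Ccl2, Ccl7, Cxcl1, Cxcl2 and Cxcl5 were lost without any 1 of the 3 PM libraries, and those of Cx3cr1 and Cxcl10 without PM replicate 2 or 3 (0.0540 to 0.152). In KC, the calls of Ccr2 and Cx3cr1 were lost without any 1 KC-LC library, that of Ccl17 without KC-LC replicate 1 or 2, those of Ccrl2 and Cxcl1 without KC-LC replicate 2 or 3, and those of Ccrl2 and Cxcl2 without KC replicate 2 or 3, of Cxcl1 without KC replicate 2 and of Cx3cr1 without KC replicate 1 (0.0511 to 0.132). The AM call of Cxcl9 was lost without any 1 AM library or AM-LC replicate 1 or 3, that of Ccl12 without any 1 AM library or AM-LC replicate 1, and that of Cxcl10 without AM replicate 3 (0.0545 to 0.120). The other sorted against cultured calls of members named by rule that are given here held without each library in turn, apart from those for which a value is given beside the result.

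**Figure D3:**
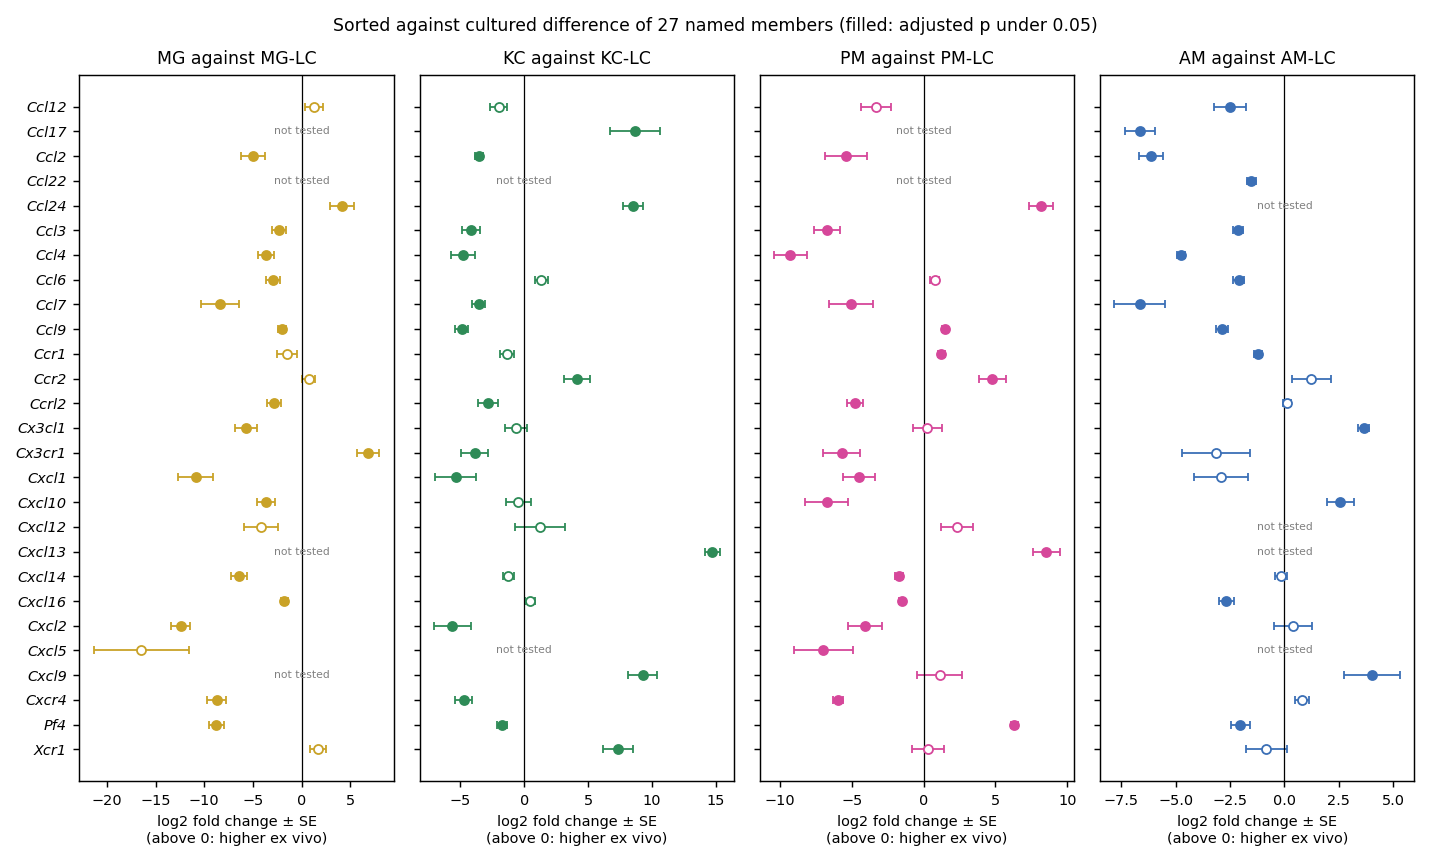
Log2 fold change (sorted minus cultured, horizontal axis) ± SE of 27 members named by rule, in the 4 populations; filled circles passed an adjusted p of 0.05 and values above 0 were higher ex vivo. Ccl2, Ccl3, Ccl4 and Ccl7 lie left of 0 in every panel, while Pf4, Cx3cr1 and Ccl9 lie on opposite sides in different panels.

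Of the 4 Ccr2 ligands, 2, 2, 2 and 3 were higher in vitro in MG, KC, PM and AM and none was higher ex vivo. Ccl2 and Ccl7, which recruit monocytes, were at most 26.7 CPM in any sorted library. Ccl2 was at 6.39, 6.76 and 12.7 CPM in MG and 636, 126 and 27.9 in MG-LCs, and at 24.9, 26.7 and 17.9 in KC and 234, 222 and 388 in KC-LCs. It was at 3.54, 0.545 and 1.87 CPM in PM and 3.68, 208 and 36.4 in PM-LCs, and at 2.66, 3.04 and 6.09 in AM and 231, 161 and 424 in AM-LCs. Sorted and cultured libraries did not overlap in any of the 4 populations, though PM-LC replicate 1 was hardly above PM. The log2 fold changes were -4.99 ± 1.20, adjusted p = 0.0180 in MG, -3.57 ± 0.33, adjusted p = 0.000518 in KC, -5.39 ± 1.45, adjusted p = 0.0296 in PM and -6.14 ± 0.55, adjusted p = 0.000224 in AM. Ccl7 followed the same libraries, with 656, 51.9 and 6.66 CPM in MG-LCs, 93.3, 101 and 197 in KC-LCs, 1.19, 62.5 and 12.1 in PM-LCs and 28, 21 and 177 in AM-LCs against at most 17.7 CPM in the sorted libraries. Its highest library in MG-LCs, PM-LCs and AM-LCs was the one richest in fibroblast and mesothelium markers and, as given above, in monocyte markers. Without that library Ccl7 stood at -5.36, adjusted p = 0.00659 in MG, -3.10, adjusted p = 0.0934 in PM and -4.96, adjusted p = 0.00145 in AM, and the PM call, where PM and PM-LCs overlapped, was lost. Ccl2 kept its call without those libraries (-3.20, adjusted p = 0.0111 in MG, -3.31, adjusted p = 0.0400 in PM), and the fibroblast and mesothelium markers summed to 0.0240, 1.59 and 29.8 CPM in KC-LCs. The part of stromal cells and of monocytes in these levels was not tested. The receptor Ccr2 was higher ex vivo in KC (4.10 ± 1.02, adjusted p = 0.0185; 2.7, adjusted p = 0.0349 without KC replicate 1) and in PM (4.79 ± 0.94, adjusted p = 0.00926), where it was at 24.7, 25.9 and 60.2 CPM in PM and 0.420, 0.338 and 3.14 in PM-LCs. The 6 monocyte markers summed to 353, 305 and 432 CPM in PM, highest in replicate 3 like Ccr2, and to 26.7, 154 and 9.49 in PM-LCs. The part of monocytes in the PM level of Ccr2 was not tested.

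**Figure D4:**
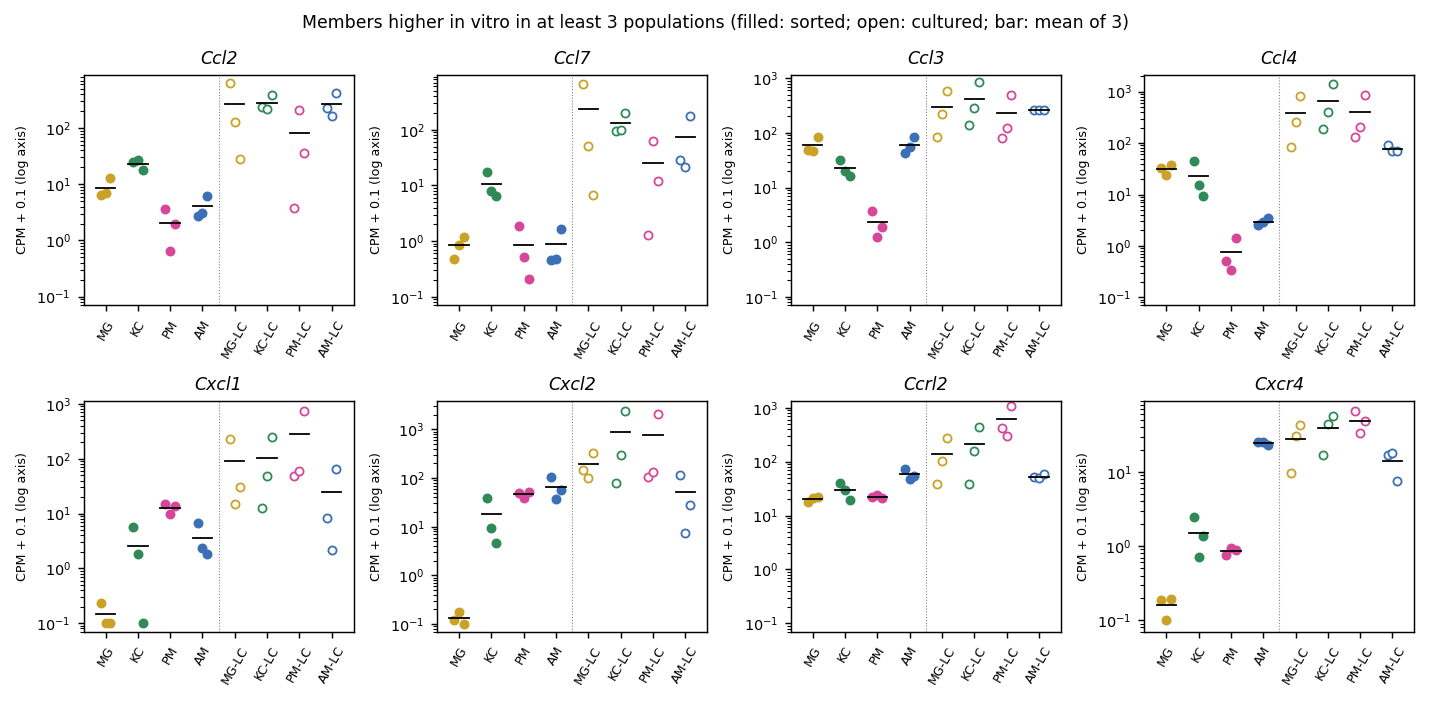
CPM + 0.1 on a log axis for 8 members that were higher in vitro in at least 3 populations, drawn as in the plot of tissue-specific members. The spread between cultured libraries was wide: Cxcl2 ran from 78.4 to 2328 CPM in KC-LCs, and Cxcr4 stayed within 9.50 to 65.7 CPM in MG-LCs, KC-LCs and PM-LCs.

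Of the 5 inflammatory CC ligands Ccl3, Ccl4, Ccl5, Ccl6 and Ccl9, 5, 3, 3 and 4 were higher in vitro in MG, KC, PM and AM, and 1 was higher ex vivo in PM. Ccl3 and Ccl4 rose in every culture. Ccl4 was at 32.6, 23.9 and 37.4 CPM in MG and 85.1, 253 and 813 in MG-LCs, at 45, 15.2 and 9.36 in KC and 188, 401 and 1419 in KC-LCs, at 0.401, 0.245 and 1.30 in PM and 133, 208 and 876 in PM-LCs, and at 2.42, 2.84 and 3.33 in AM and 91.1, 71 and 69.8 in AM-LCs. No pair of groups overlapped, and replicate 3 was the highest of the MG-LC, KC-LC and PM-LC libraries. The log2 fold changes were -3.65 ± 0.83, adjusted p = 0.0149 in MG, -4.82 ± 0.95, adjusted p = 0.00787 in KC, -9.28 ± 1.13, adjusted p = 0.00120 in PM and -4.76 ± 0.19, adjusted p = 3.17e-05 in AM. Without replicate 3 of the cultures they were -2.48, adjusted p = 0.0141 in MG, -3.65, adjusted p = 0.0181 in KC and -7.98, adjusted p = 0.000456 in PM. Ccl3 behaved alike on a smaller scale, from -2.12 ± 0.24, adjusted p = 0.000538 in AM to -6.73 ± 0.92, adjusted p = 0.00199 in PM. MG and MG-LCs overlapped narrowly for it, and the MG call did not hold without MG-LC replicate 3 (-1.38, adjusted p = 0.0682). The sizes differed between populations for both genes (interaction F test, adjusted p = 0.00551 for Ccl3 and 0.00919 for Ccl4), PM showing the largest.

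Ccl9 and Ccl6, neighbouring Ccr1 ligands, did not share one direction. Ccl9 was at 138, 137 and 138 CPM in MG and 649.7, 663 and 250.4 in MG-LCs, at 38.1, 13.8 and 17.9 in KC and 770.5, 848 and 530.0 in KC-LCs, at 101 ± 9.01 (mean ± SD, n = 3) in AM and 535, 1084 and 593 in AM-LCs, but at 903, 999 and 988 in PM and 289.9, 351 and 402 in PM-LCs. It was higher in vitro in 3 populations and higher ex vivo in PM (1.47 ± 0.19, adjusted p = 0.00138), without overlap in any. The sorted means spanned 23.3 to 963 CPM and the cultured means 348 to 737, and no pair of cultures differed by the test. Ccl6 was at 27549.7, 50799.8 and 27608 CPM in AM-LCs, up to 3.75% of all reads of a library, and above AM (-2.11 ± 0.26, adjusted p = 0.000825). It was also higher in MG-LCs (1979, 371 and 619 CPM; -2.94 ± 0.67, adjusted p = 0.0150; -1.94, adjusted p = 0.00172 without MG-LC replicate 1), while KC (1.34 ± 0.54, adjusted p = 0.0922) and PM (0.78 ± 0.32, adjusted p = 0.108) missed the threshold in the other direction, PM passing it without PM-LC replicate 2 (1.18, adjusted p = 0.00798). AM-LCs exceeded PM-LCs 21.7-fold (adjusted p = 0.0155). Ccl5, the T cell attractant RANTES, was higher in vitro in MG (-4.02 ± 1.25, adjusted p = 0.0401) and PM (-6.31 ± 1.07, adjusted p = 0.00492), at no more than 17.8 CPM in those cultures.

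Of the 6 ELR CXC ligands, 2, 2, 3 and 1 were higher in vitro in MG, KC, PM and AM, and 1 was higher ex vivo in AM. The neutrophil attractants Cxcl1 and Cxcl2 were nearly silent in sorted MG. Cxcl2 was at 0.0220, 0.0811 and 0 CPM in MG (4 reads in all) and at 147, 99.8 and 323 in MG-LCs, at 39.3, 9.47 and 4.54 in KC and 78.4, 300.2 and 2328 in KC-LCs, and at 49, 38.7 and 50.5 in PM and 104, 136 and 2074 in PM-LCs. All cultured libraries were above the sorted ones of their population, and the calls were at -12.42 ± 0.96, adjusted p = 0.000809 in MG, -5.63 ± 1.44, adjusted p = 0.0206 in KC and -4.08 ± 1.19, adjusted p = 0.0388 in PM. The size in KC and PM rested on replicate 3: without it the fold change was -3.40, adjusted p = 0.0489 in KC and -1.35, adjusted p = 0.00367 in PM, both still past the threshold. In AM, with 103, 36.5 and 57.3 CPM, and AM-LCs, with 117, 7.37 and 27.5, the groups overlapped (0.38 ± 0.87, adjusted p = 0.740). Cxcl1 showed the same order, with 227.2, 14.8 and 30.3 CPM in MG-LCs, 12.5, 47.8 and 249.6 in KC-LCs and 48.9, 59.3 and 731 in PM-LCs against at most 14.9 CPM in any sorted library (-10.87 ± 1.79, adjusted p = 0.00568 in MG, where the 6 reads of the sorted libraries make the size depend on the prior count, -8.85, adjusted p = 0.00152 without MG-LC replicate 1, and -4.49 ± 1.12, adjusted p = 0.0231 in PM). Without PM-LC replicate 3 the PM value was -2.07, adjusted p = 0.00170. The KC call for Cxcl1 (-5.37 ± 1.61, adjusted p = 0.0359) was lost without KC-LC replicate 3 (-3.62, adjusted p = 0.132). Cxcl3 went the other way in AM, from 34.9, 23.6 and 36.8 CPM to 2.29, 1.68 and 1.36 (4.15 ± 0.28, adjusted p = 0.000102). Cxcl5 had no read in MG and was at 809, 0.597 and 12.9 CPM in MG-LCs, 0.678, 30.5 and 1.54 in PM-LCs and 0.229, 0 and 24.4 in AM-LCs, highest each time where the fibroblast and mesothelium sum was highest. Its PM call (-6.98 ± 2.04, adjusted p = 0.0394) was lost without PM-LC replicate 2 (-3.62, adjusted p = 0.119).

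The 250 bases before the RefSeq start (build GRCm38.p6) were searched on both strands for the 10-base NF-kB consensus, and 49 of the 63 members had an entry. The motif lay in 1014 of 27025 promoter windows of all genes (3.75%), in 9 of the 49 members (18.4%), in 4 of the 7 members with an entry that were higher in vitro in at least 3 populations (Cxcl1, Cxcl2, Ccl9 and Ccrl2) and in 5 of the 42 others (Cxcl3, Cxcl10, Ccl20, Ccr3 and Ackr2). Ccl2, Ccl4, Ccl7 and Cxcl16, also higher in vitro in at least 3 populations, had no entry, and the window of Ccl3 held no motif. These shares describe letters in a window, not binding. The culture-high set was picked by its calls in these data, and the part of NF-kB in the levels was not tested. The windows of the 4 culture-high members follow, with those of Cxcl3 and Cxcl10, which hold the motif as well but were higher ex vivo in AM. Capitals mark the motif, and the sequences run 5′ to 3′ on the strand of the gene.
Cxcl1, chr5:90890995-90891244, plus strand: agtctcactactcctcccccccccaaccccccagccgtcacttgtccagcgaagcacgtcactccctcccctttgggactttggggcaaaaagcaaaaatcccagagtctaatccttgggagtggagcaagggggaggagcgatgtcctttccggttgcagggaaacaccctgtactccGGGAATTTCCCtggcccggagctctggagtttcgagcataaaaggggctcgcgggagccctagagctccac
Cxcl2, chr5:90903649-90903898, plus strand: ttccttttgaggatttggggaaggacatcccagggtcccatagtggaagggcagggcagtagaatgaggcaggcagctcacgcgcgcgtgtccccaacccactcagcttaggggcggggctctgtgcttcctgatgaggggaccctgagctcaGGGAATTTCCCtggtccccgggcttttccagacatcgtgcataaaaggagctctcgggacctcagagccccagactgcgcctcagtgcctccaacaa
Ccl9, chr11:83578637-83578886, minus strand: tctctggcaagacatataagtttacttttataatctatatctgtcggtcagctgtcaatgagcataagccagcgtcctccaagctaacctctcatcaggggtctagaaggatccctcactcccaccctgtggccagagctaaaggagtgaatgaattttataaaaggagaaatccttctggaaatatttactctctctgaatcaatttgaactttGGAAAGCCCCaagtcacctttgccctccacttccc
Ccrl2, chr9:111057519-111057768, minus strand: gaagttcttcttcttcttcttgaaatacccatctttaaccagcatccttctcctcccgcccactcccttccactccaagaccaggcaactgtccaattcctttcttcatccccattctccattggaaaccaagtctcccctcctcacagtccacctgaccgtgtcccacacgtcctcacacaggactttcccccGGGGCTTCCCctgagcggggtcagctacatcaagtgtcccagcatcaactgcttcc
Cxcl3, chr5:90785851-90786100, plus strand: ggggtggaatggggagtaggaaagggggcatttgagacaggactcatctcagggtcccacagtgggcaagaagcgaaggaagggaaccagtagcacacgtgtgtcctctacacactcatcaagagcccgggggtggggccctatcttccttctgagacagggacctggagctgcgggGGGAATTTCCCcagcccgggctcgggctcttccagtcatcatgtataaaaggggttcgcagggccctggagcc
Cxcl10, chr5:92348890-92349139, minus strand: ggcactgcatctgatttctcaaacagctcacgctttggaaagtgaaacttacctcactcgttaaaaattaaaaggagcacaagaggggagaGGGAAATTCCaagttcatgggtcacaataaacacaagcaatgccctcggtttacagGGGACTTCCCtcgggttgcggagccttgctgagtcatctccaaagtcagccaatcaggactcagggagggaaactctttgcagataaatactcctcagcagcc

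Cxcl9 and Cxcl10 are interferon targets and ligands of Cxcr3. Cxcl10 was at 2.56, 2.98 and 2.08 CPM in MG and 28.4, 3.96 and 59.7 in MG-LCs, and at 0.802, 0 and 0 in PM and 7.30, 24.8 and 48.5 in PM-LCs, and it was higher in vitro in both (-3.64 ± 0.92, adjusted p = 0.0211 and -6.74 ± 1.49, adjusted p = 0.0143). In AM it was higher ex vivo (2.57 ± 0.61, adjusted p = 0.0113), and in KC, with 57.2, 32.8 and 40.5 CPM against 4.63, 24.6 and 154, the groups overlapped. Its exons overlap those of Art3 on the other strand. Without PM replicate 1, the only PM library with a read, the size in PM depends on the prior count. Cxcl9 was under 1 CPM in every cultured library, and was higher ex vivo in KC (9.25 ± 1.13, adjusted p = 0.00154; 7.73, adjusted p = 0.000406 without KC replicate 1) and in AM (4.02 ± 1.29, adjusted p = 0.0369; 3.45, adjusted p = 0.0585 without AM-LC replicate 3). Their receptor Cxcr3 had no read in PM and 17.1, 8.84 and 7.44 CPM in PM-LCs, at least 111-fold higher in culture. In MG it went from 3.06, 1.95 and 2.58 CPM to 5.67, 13.5 and 7.20 (-1.84 ± 0.44, adjusted p = 0.0169). PM-LC replicate 1, the highest for Cxcr3 and for the B cell receptor Cxcr5, also had a sum of 116 CPM over 8 B cell markers against 1.41 and 1.37, and the part of B cells was not tested.

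Of the 13 homeostatic ligands 4, 5, 5 and 3 could be tested in MG, KC, PM and AM. Cxcl13 was higher ex vivo in KC and PM, Cxcl14 was higher in vitro in MG and PM, and no other was called. The shares called were 25%, 20%, 40% and 0%, beside 46.4%, 33.8%, 28.9% and 48.7% of all genes, so below them except in PM. Cxcl13 fell from 5926, 4782 and 5148 CPM in PM to 21.3, 2.09 and 19.3 in PM-LCs (8.54 ± 0.94, adjusted p = 0.000803), and from 253, 273 and 365 in KC to 1 read in the 3 KC-LC libraries together (edgeR adjusted p = 5.6e-05). Ccl24 went from 606, 398 and 322 to 2.39, 0.215 and 1.95 CPM in PM (8.18 ± 0.84, adjusted p = 0.000578) and from 308, 227.3 and 241 to 0.120, 0.698 and 1.34 in KC (8.53 ± 0.80, adjusted p = 0.000576). Sorted and cultured libraries were far apart in all of these. Pf4 dropped from 3969.7, 3019 and 2829 CPM in PM to 34.6, 42.4 and 45.4 in PM-LCs (6.32 ± 0.26, adjusted p = 2.63e-05), but climbed from 0.330, 0.379 and 0.358 to 281, 91.8 and 72.5 in MG (-8.75 ± 0.75, adjusted p = 0.00100), where the platelet markers summed to at most 4.18 CPM in MG-LCs and 36 in MG, from 38, 26.5 and 15.6 to 124, 79.9 and 69.5 in KC (-1.74 ± 0.38, adjusted p = 0.0116) and from 4.90, 1.79 and 2.56 to 14.2, 15 and 8.50 in AM (-2.03 ± 0.43, adjusted p = 0.00732). Its difference between sorted and cultured cells varied most clearly with the population (interaction F test, adjusted p = 3.62e-09), and its means, from 0.356 to 3273 CPM across sorted populations, lay between 12.6 and 148 in culture.

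Cx3cl1 fell from 78.6, 69.3 and 99.2 CPM in AM to 6.96, 4.69 and 7.97 in AM-LCs (3.63 ± 0.26, adjusted p = 0.00012) and rose in MG-LCs to 50.1, 6.74 and 4.28 (-5.70 ± 1.15, adjusted p = 0.0102; -3.81, adjusted p = 0.00161 without MG-LC replicate 1). Cxcl14, an orphan-like homeostatic ligand, was higher in MG-LCs (5.96, 25.6 and 9.86 CPM; -6.45 ± 0.82, adjusted p = 0.00268) and in PM-LCs (38.8, 68.8 and 70.8 CPM; -1.70 ± 0.29, adjusted p = 0.00502). Cxcl16 was higher in vitro in AM (-2.67 ± 0.34, adjusted p = 0.000875), MG (-1.77 ± 0.32, adjusted p = 0.00767) and PM (-1.53 ± 0.19, adjusted p = 0.00132), not in KC, where it began highest (99.1, 242 and 252 CPM in KC-LCs; 0.43 ± 0.37, adjusted p = 0.389). The cultures therefore held it at means of 75.3 to 207 CPM, beside 11.8 to 261 ex vivo. Cxcl12 was at 1.26, 51.3 and 5.59 CPM in PM-LCs, 0.327, 0.649 and 169 in AM-LCs and 32.3, 0.398 and 0.914 in MG-LCs, again highest in the libraries rich in fibroblast and mesothelium RNA. In PM the difference was 2.32 ± 1.11, adjusted p = 0.161, and 4.83, adjusted p = 0.000985 without PM-LC replicate 2. Ccl12 was at 47.9, 2.39 and 10.8 CPM in MG-LCs, highest in replicate 1, and the difference from MG passed the test with that library left out (1.26 ± 0.95, adjusted p = 0.305; 2.89, adjusted p = 0.0136 without it).

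Of the 11 CC receptors, 3, 5 and 2 were higher ex vivo in MG, KC and PM with none higher in vitro, and 3 were higher in vitro in AM with none higher ex vivo. The numbers tested were 6, 7, 6 and 5, so that 50%, 71.4%, 33.3% and 60% were called, beside 46.4%, 33.8%, 28.9% and 48.7% of all genes. Of the 8 CXC, CX3C and XC receptors, 1, 3, 0 and 1 were higher ex vivo and 2, 2, 3 and 1 higher in vitro in MG, KC, PM and AM, among 5, 7, 5 and 8 tested. Those called made up 60%, 71.4%, 60% and 25%, above the share over all genes in MG, KC and PM and below it in AM. Cx3cr1 fell 119-fold on average, to 7.70, 112 and 60.9 CPM in MG-LCs (6.86 ± 1.14, adjusted p = 0.00571), and rose in KC-LCs to 141, 126 and 69.6 (-3.90 ± 1.09, adjusted p = 0.0278) and in PM-LCs to 3.58, 35.3 and 3.82 (-5.72 ± 1.32, adjusted p = 0.0168; -3.73, adjusted p = 0.0217 without PM-LC replicate 2). KC-LCs thus lay within or above the MG-LC range, and no difference was called (adjusted p = 0.785). Without MG-LC replicate 1 the MG difference was 6.33, adjusted p = 0.000336. Ccr1 fell in PM, to 206, 198 and 349 CPM (1.23 ± 0.26, adjusted p = 0.0118), and rose in AM, to 567, 403 and 347 (-1.21 ± 0.19, adjusted p = 0.00199). Cxcr4, the receptor for Cxcl12, was at 9.50, 30.9 and 42.6 CPM in MG-LCs, 16.8, 43.7 and 56.8 in KC-LCs and 65.7, 33.6 and 48.5 in PM-LCs, where every sorted library had under 2.35. The fold changes were -8.74 ± 1.02, adjusted p = 0.00217 in MG, -4.75 ± 0.67, adjusted p = 0.00248 in KC and -5.99 ± 0.35, adjusted p = 5.79e-05 in PM. AM, the sorted population that already had it, was not called (16.8, 18.1 and 7.46 CPM in AM-LCs; 0.80 ± 0.31, adjusted p = 0.0636; 1.01, adjusted p = 0.0455 without AM-LC replicate 2), and the difference between populations passed the interaction test (adjusted p = 3.81e-06).

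Ccrl2, an atypical receptor that presents chemerin instead of signalling, was at 37.8, 104 and 273 CPM in MG-LCs, 38.3, 159 and 440.4 in KC-LCs and 421, 305 and 1092 in PM-LCs, against 17.6, 20.7 and 22 in MG, 40.1, 29.5 and 19.5 in KC and 21.7, 24.4 and 20.8 in PM. It was higher in vitro in all 3 (-2.82 ± 0.69, adjusted p = 0.0187 or -1.86, adjusted p = 0.0212 without MG-LC replicate 3, -2.81 ± 0.79, adjusted p = 0.0279 and -4.77 ± 0.53, adjusted p = 0.000825), though KC-LC replicate 1 lay inside the KC range and the KC call was lost without replicate 3 (-1.72, adjusted p = 0.0826). AM and AM-LCs overlapped (0.12 ± 0.19, adjusted p = 0.618). Of the low receptors, Ccr6 was lost from MG (7.75 ± 0.93, adjusted p = 0.00224), and Ackr3 fell in PM, to 0.420, 1.66 and 0.101 CPM (5.51 ± 1.03, adjusted p = 0.00753). Cxcr6 and Ccr7 had no read in KC-LCs, and their KC means lay at least 133-fold and 369-fold above the floor. Replicate 1 was the highest KC library for both, Ccr7 stood at 14.1 ± 17.1 CPM per kilobase in KC (mean ± SD, n = 3), and no value without replicate 1 was computed. Xcr1, at under 1 CPM in all cultured libraries, was higher ex vivo in KC with or without KC replicate 1 (7.34 ± 1.20, adjusted p = 0.00417 and 5.43, adjusted p = 0.00172).

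The cultures were also compared with each other. The F test over the 12 cultured libraries called 8 of 43 members (18.6%, beside 7.85% of all genes tested; 19 by DESeq2): Ccl6, Ccl17, Ccl22, Cxcl13, Pf4, Ccr1, Ccr7 and Cxcr1. In 6 of them AM-LCs were the highest group. Ccl17 passed the filter on low counts through AM-LCs alone, so that the filter largely set its call. The call of Ccr1 was lost without any 1 AM-LC or KC-LC library and without PM-LC replicate 1 or 3 (adjusted p from 0.0540 to 0.0912). Ccl17 was at 217, 509.5 and 133 CPM in AM-LCs and at most 0.202 in any other cultured library, and Ccl22 at 55.4, 39.2 and 30.1 against at most 0.480. Both were higher than in AM, where Ccl17 was at 4.81, 1.59 and 2.11 CPM (-6.66 ± 0.69, adjusted p = 0.000406) and Ccl22 at 15.6, 14.1 and 13.7 (-1.52 ± 0.22, adjusted p = 0.00149). Ccr7, the receptor that guides dendritic cells to lymph nodes, was at 52.2, 30.8 and 18.8 CPM in AM-LCs against 0, 0.256 and 0.0995 in AM (-8.06 ± 0.79, adjusted p = 0.000315), and Cxcr1 at 22, 86.6 and 24 (-1.70 ± 0.52, adjusted p = 0.0293). The neutrophil markers summed to 675, 736 and 321 CPM in AM-LCs, again led by Mmp8 and with Ly6g and Retnlg at 0. AM-LC replicate 1 was highest for Ccr7 and Ccl22 and replicate 2 for Ccl17 and Cxcr1. The 5 dendritic cell markers summed to 55.4, 18.5 and 21.9 CPM in AM-LCs against at most 4.21 in AM and 9.36 in PM-LCs, with Flt3 without a read in AM-LCs. The part of such cells was not tested. Cxcl13 was highest in PM-LCs (adjusted p = 0.0327 against AM-LCs), and Pf4 was lowest in AM-LCs (adjusted p = 0.00510 against MG-LCs). With MG-LC replicate 1, PM-LC replicate 2 and AM-LC replicate 3 left out, 9 of 42 members were called.

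Taking all 24 libraries in 1 model, the effect of culture differed between the 4 populations for 34 of 51 members tested (66.7%, beside 36.3% of all genes), 22 of 31 ligands and 12 of 20 receptors. With KC replicate 1, MG-LC replicate 1, PM-LC replicate 2 and AM-LC replicate 3 left out the count was again 34.

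**Figure D5:**
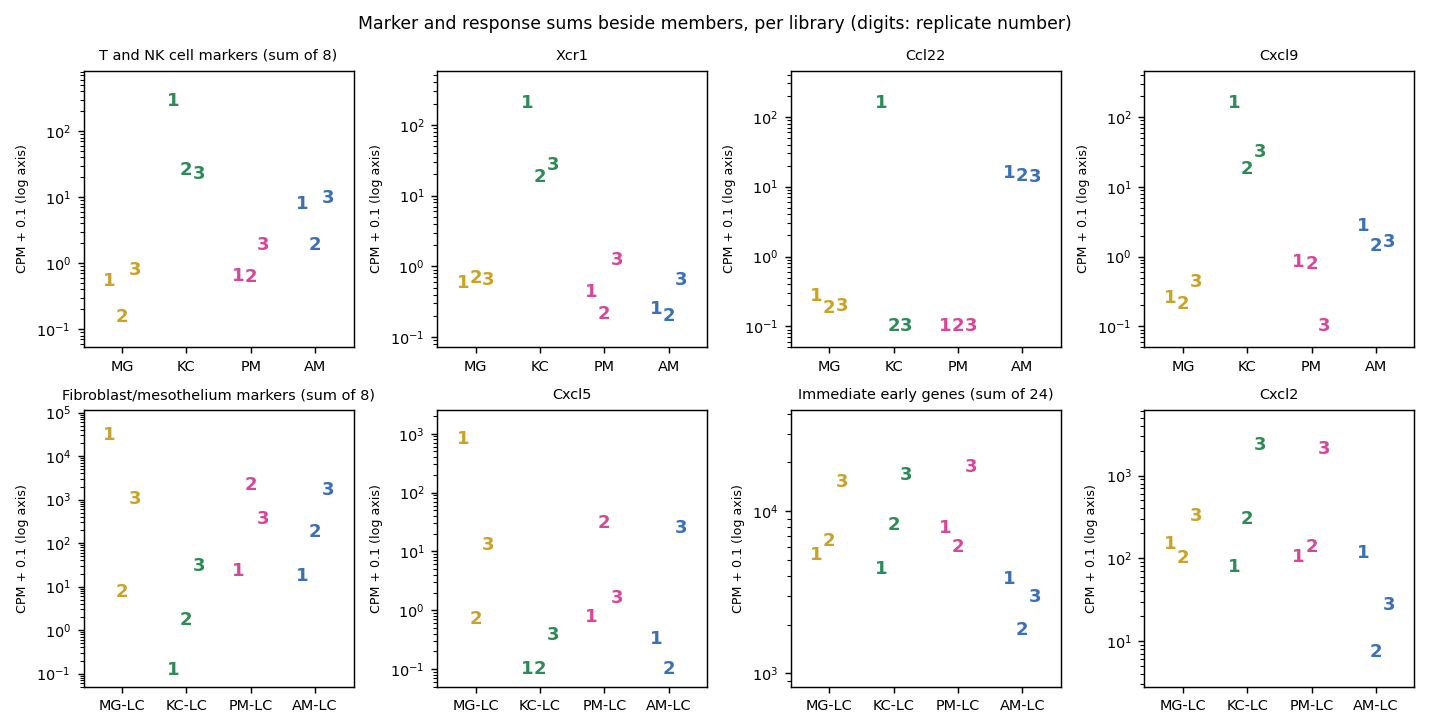
Summed CPM of marker and response genes (panels with a sum in the title) and CPM of members, each + 0.1 on a log axis; digits are the replicate numbers of the libraries. KC replicate 1 is highest for T and NK cell markers, Xcr1, Ccl22 and Cxcl9; the cultured libraries with most fibroblast and mesothelium RNA are highest for Cxcl5; and replicate 3 of MG-LCs, KC-LCs and PM-LCs is highest for both immediate early genes and Cxcl2.

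Some ligands were highest in the cultured libraries that were also highest for response genes, and others were not. The 24 immediate early genes summed to 5350.5, 6588 and 15089.7 CPM in MG-LC replicates 1, 2 and 3, 4382, 8231 and 16839.7 in KC-LCs and 7868, 6060.3 and 18767 in PM-LCs, so that replicate 3 was the highest of each, as it was for Cxcl2, Ccl3, Ccl4 and Ccrl2. Ccl2 and Ccl7 were instead highest in MG-LC replicate 1 and PM-LC replicate 2, and Cxcl1 in MG-LC replicate 1. The 20 genes of the NF-kB response summed to 1189.6, 1759 and 4648 CPM in KC-LCs and 1383, 1229 and 5002 in PM-LCs, again with replicate 3 on top, and to 3877, 1717 and 3021 in MG-LCs, where replicate 1 led. AM-LCs showed no such library, with 3803, 1858 and 2965 for the immediate early sum. Of the members named by rule with at least 10 CPM on average, replicate 3 was highest for 12 of 17 in KC-LCs, 10 of 20 in PM-LCs and 8 of 21 in MG-LCs, where replicate 1 was highest for 10. The part of this state in the members' levels was not tested.

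Genes downstream of the receptors and genes of 3 response programs were counted against the share called over all genes tested, which was 46.4% in MG, 33.8% in KC, 28.9% in PM and 48.7% in AM. Of 35 genes of chemokine receptor signalling (G proteins, arrestins, small GTPases and regulators), 9 were higher ex vivo and 7 in vitro in MG, 10 and 7 in KC, 11 and 6 in PM and 18 and 7 in AM, with median log2 fold changes of 0.23, -0.34, 0.29 and 0.60. The genes called in either direction made up 47.1%, 50%, 48.6% and 73.5% of those tested, which in MG was at the share over all genes. Rgs1, which damps signalling of Gi-coupled receptors, was at 106, 85.7 and 88.1 CPM in MG and 454, 646 and 2050.0 in MG-LCs, at 167, 98.2 and 67.9 in KC and 625, 1347 and 1542 in KC-LCs, at 12.1, 8.59 and 8.51 in PM and 2404, 1791 and 2026 in PM-LCs, and at 133, 58.5 and 54.7 in AM and 433, 254 and 345 in AM-LCs. It was higher in vitro in all 4 (-3.53 ± 0.64, adjusted p = 0.00726, -3.37 ± 0.49, adjusted p = 0.00276, -7.73 ± 0.28, adjusted p = 2.63e-05 and -2.08 ± 0.39, adjusted p = 0.00423). The Gi subunit gene Gnai2 differed in AM alone among the 4 tests (0.81 ± 0.17, adjusted p = 0.00674). Of the 24 immediate early genes, 14, 11 and 14 were higher in vitro and 1, 0 and 1 higher ex vivo in MG, KC and PM, but in AM 3 were higher in vitro and 13 ex vivo, with medians of -1.98, -1.67, -2.49 and 1.08 in MG, KC, PM and AM and 62.5%, 45.8%, 65.2% and 69.6% called. Fos was such a gene, at 19.8, 14 and 14.2 CPM in PM and 886, 659 and 2220.2 in PM-LCs (-6.30 ± 0.57, adjusted p = 0.000333) and at 1089.6, 888 and 933 in AM and 327, 80.6 and 328 in AM-LCs (1.96 ± 0.50, adjusted p = 0.0148). The NF-kB response list gave 6, 3, 8 and 2 genes higher in vitro and 4, 6, 3 and 9 higher ex vivo among 20 in MG, KC, PM and AM, with medians of -0.18, 0.57, -0.94 and 0.63 and 50%, 45%, 55% and 55% called. The 26 interferon response genes gave 10, 0, 14 and 17 higher in vitro and 0, 8, 2 and 2 higher ex vivo, with medians of -2.33, 0.94, -1.37 and -1.81 and 38.5%, 30.8%, 61.5% and 73.1% called, below the share over all genes in MG and KC. Their sum was 3339, 853 and 514 CPM in MG-LC replicates 1, 2 and 3 against 629, 575 and 598 in MG, so that MG-LC replicate 3 lay below every MG library. It was 964, 1619 and 1053 in PM against 5301, 4083 and 2661 in PM-LCs. In AM it was 371, 436 and 383 against 604, 945 and 586 in AM-LCs.

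Several members lie side by side in the genome (GENCODE vM21, GRCm38). The Ccr2 ligand cluster (chr11:82035571-82305690, with Ccl2, Ccl7, Ccl11, Ccl12, Ccl8 and Ccl1) had 2, 2, 2 and 3 members higher in vitro in MG, KC, PM and AM and none higher ex vivo. The neighbouring cluster of Ccl5, Ccl9, Ccl6, Ccl3 and Ccl4 (chr11:83525778-83664683) had 5, 3, 3 and 4 of 5 members higher in vitro and only Ccl9 in PM higher ex vivo. In the CXC cluster on chr5:90759360-90905938, Pf4 fell in PM while Cxcl5, Cxcl1 and Cxcl2 rose.

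Ligands and receptors of 1 group could meet. Ccl6 and Ccl9 were each at 10 CPM or more beside their receptor Ccr1 in every library of MG, PM, AM, KC-LCs, PM-LCs and AM-LCs, but not of KC, whose lowest library had 3.11 CPM of Ccr1, nor of MG-LCs, whose lowest had 5.67. Cxcl12 and Ackr3 passed the same limit together in PM alone among the 8 groups, and Cxcl9 and Cxcl10 with Cxcr3 in KC alone. Cxcr3 varied widely in KC, with 26.0 ± 26.4 CPM per kilobase (mean ± SD, n = 3). KC also held T and NK cell markers, and the part of such cells in these levels was not tested. In bulk samples a ligand and its receptor need not come from the same cells. Of the 49 members that entered a sorted against cultured test, 6 were called in no population, namely the ligands Ccl8, Ccl25, Ccl27a, Cxcl12, Cxcl15 and Cxcl17. Ccl8, Cxcl15 and Cxcl17 were each tested in 1 population only, Ccl8 in KC. Without a test, Ccl8 had no read in AM or MG and means of 33.1 CPM in AM-LCs and 9.40 in MG-LCs, without overlap. Cxcl12 was not tested in AM, where its mean was 0.0256 CPM, against 56.5 in AM-LCs.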

How the data were processed

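The authors deposited 1 table of raw counts per gene for 24 libraries, with no normalization, made by them from single-read RNA-seq of SMARTer v4 and Nextera XT libraries, a kit that does not mark strand. The study's methods name Trimmomatic, STAR and the mouse build mm10, whereas the submitters' processing notes list Trimmomatic 0.36, STAR 2.5.2b and a human build. The identifiers in the table are mouse genes. Library depth was 29569486 to 47105111 reads on genes. Counts were analysed as deposited, and 563 identifiers had no symbol.

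Low genes were removed with filterByExpr (minimum count 10), libraries were scaled by TMM, and edgeR 4.0.16 (R 4.3.3) quasi-likelihood tests were run over all genes with Benjamini-Hochberg adjustment and a threshold of 0.05. Each sorted against cultured comparison used its 6 libraries, the F tests 12 and the interaction all 24, without covariates. A log2 fold change above 0 is higher ex vivo and is given ± SE. CPM values used TMM factors over all 24 libraries, and per-kilobase values divided CPM by the union of exons. A group without reads was set against a floor of 3 reads per library, and a library without a read allows up to that floor at 95% confidence for counting error only.

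Alternatives were limma-voom (limma 3.58.1), DESeq2 1.42.0, RLE size factors, no filter, at least 1 CPM in 3 libraries, an added absolute log2 fold change of 1.5, all 24 libraries in 1 fit, a replicate block and each library left out. Leaving out the libraries rich in RNA of other cell types was added after the data were seen. In simulated counts the tests found 79, 98, 119 and 145 of 200 changed genes in MG, KC, PM and AM, with 4, 3, 5 and 14 false calls.

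Members and gene lists were chosen with earlier results of these data known. Values per library are given for members with a mean of at least 50 CPM in a group or called in at least 3 comparisons, and for Ccl2, Ccr2 and Cx3cr1 (28 members, 1 of which is not reported here). Up to 4 genes were taken from each signalling or response list by level. Ccl5, Ccl8, Cxcl3, Cxcr1, Cxcr2, Cxcr3, Cxcr5, Cxcr6, Ccr6, Ccr7, Xcl1 and Ackr3 were chosen after their values were seen, as were the platelet, neutrophil and dendritic cell genes named singly. The genes named in counts of 9 or fewer follow from those counts. Symbols of 3 non-coding genes were dropped. Promoter sequences are from RefSeq (GRCm38.p6).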

Additional observations from a re-analysis of the deposited data

Results flagged for a closer look

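For 21 of the members named by rule, the difference between sorted and cultured cells was not the same in the 4 populations (edgeR interaction F test over 24 libraries, Benjamini-Hochberg adjusted p over all genes). The adjusted p was 3.62e-09 for Pf4, 5.54e-07 for Ccl9, 3.81e-06 for Cxcr4, 1.56e-05 for Cxcl14 and 8.72e-05 for Ccl24. It was 0.000118 for Ccl17, 0.000175 for Cxcl13, 0.000217 for Cx3cl1, 0.00046 for Ccl6, 0.00065 for Cxcl16 and 0.000698 for Cx3cr1. It was 0.00195 for Cxcl2, 0.00223 for Xcr1, 0.003 for Cxcl10, 0.00459 for Ccrl2, 0.00551 for Ccl3 and 0.00919 for Ccl4. The least clear were Cxcl9 with 0.011, Cxcl12 with 0.0212, Cxcl5 with 0.0262 and Ccl12 with 0.0343.

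Limma-voom did not call Ccl3, Ccl4, Ccl12, Cxcl5, Cxcl9, Cxcl10, Cxcl12 and Xcr1 in this test. With KC replicate 1, MG-LC replicate 1, PM-LC replicate 2 and AM-LC replicate 3 left out, Cxcl5 and Cxcl9 were not called either. With single libraries left out, the call of Ccl12 was lost without any 1 MG library, MG-LC replicate 2 or 3 or PM replicate 1 or 2 (adjusted p from 0.0541 to 0.106), that of Cxcl12 without any 1 AM library or AM-LC replicate 3 (0.0549 to 0.0922), that of Cxcl5 without KC replicate 1 or any 1 KC-LC library (0.0607 to 0.0914) and that of Cxcl9 without KC replicate 1 (0.0578).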

How the results depend on the processing

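The count of members higher ex vivo in AM was 5, and 1 with all 24 libraries in 1 fit. The count higher ex vivo in MG was 5, and 3 with no filter on low counts. The count higher in vitro in PM was 15, and 9 by limma-voom. The members that differed among the cultures numbered 8, and 19 by DESeq2. The cause was not tested. Leaving out 1 library at a time gave 2 to 7 (AM) and 2 to 7 (MG) members higher ex vivo, 9 to 15 in KC and 7 to 9 in PM. The ranges for members higher in vitro were 13 to 18 in AM, 8 to 10 in KC, 6 to 19 in MG and 8 to 16 in PM. They were 6 to 11 for the cultured F test, 44 to 47 for the sorted one and 29 to 36 for the interaction. All other alternatives gave counts within 1.5 times of the reported ones.

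Each sorted library was paired with the same-numbered culture of its own population. Over these 12 pairs of libraries the correlation of deviations from the group means ran from -0.12 to 0.097, and 0 pairs were above 0.1. Same-numbered libraries of different populations were not compared, so whether those share a batch was not tested. With the replicate number as a block, the members higher ex vivo and in vitro were 4 and 14 in MG, 14 and 8 in KC, 7 and 11 in PM and 6 and 15 in AM, and the F tests called 45 (sorted), 10 (cultured) and 28 (interaction).

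Of the values for single named members under all alternatives, 2904 kept direction and side of the threshold, 65 passed it newly, 159 no longer passed it and 15 changed direction. None of the 15 had been called. Leaving out 1 library at a time gave Ccr1 in MG -1.98 to 0.55 (above 0 without MG-LC replicate 1), Ccrl2 in AM -0.051 to 0.25 (below 0 without AM replicate 1), Cx3cl1 in KC -1.58 to 0.20 (above 0 without KC-LC replicate 1) and in PM -0.20 to 1.92 (-0.041 and -0.20 without PM-LC replicate 1 and 2), and Cxcl12 in KC -0.28 to 5.55 (below 0 without KC replicate 1). The same gave Cxcl14 in AM -0.31 to 0.14 (above 0 without AM-LC replicate 3), Cxcl2 in AM -0.13 to 1.86 (-0.096 and -0.13 without AM replicate 1 and AM-LC replicate 2), and Xcr1 in AM -1.88 to 0.078 (above 0 without AM-LC replicate 2) and in PM -0.89 to 1.49 (-0.89 and -0.18 without PM replicate 3 and PM-LC replicate 1). Cxcl10 in KC ran from -1.04 to 1.59 (without KC-LC replicate 3) and was 0.76 by limma-voom and 0.64 with the replicate block. With all 24 libraries in 1 fit, the AM calls of Ccl22, Ccr1, Cxcl9 and Cxcl10 and the PM calls of Ccr1 and Cxcl5 were lost. With 3 libraries per group and at this depth, members with few reads carry wide errors.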
